A study of Mus musculus with 4 samples.

Results

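TNFα, encoded by *Tnf*, was followed with its receptors and the first proteins of its signaling path across the hematopoietic cells of BM and spleen in mice with or without a mammary tumor. The set held 7 genes of the 32285 in the deposited count tables, and they were chosen by function: *Tnf*, the receptor genes *Tnfrsf1a* and *Tnfrsf1b*, the adaptor genes *Traf1* and *Traf2*, the kinase gene *Ripk1*, and *Adam17*, whose product cuts TNFα from the cell surface. Each gene was read as UMIs per 1000000 UMIs of a cell population (CPM) and as the share of barcodes with at least 1 UMI, by cell class and library. A UMI is a random tag that marks 1 captured mRNA molecule. Capture was at the 3' end of the mRNA, so CPM values of different genes were not compared with each other.

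4 droplet scRNA-seq libraries were deposited, 1 each for control BM (CBM), BM of tumor-bearing mice (TBM), control spleen (CS), and spleen of tumor-bearing mice (TS). All mice were C57BL/6J, aged 8 to 16 weeks, and the methods describe female mice unless stated otherwise. Tumors came from PyMT-B6, a mammary tumor line from the MMTV-PyMT model that was injected under the skin, and controls received PBS. Tissue was digested with collagenase, depleted of lineage-positive cells, and sorted into c-Kit+ Sca-1+, c-Kit+ Sca-1-, and several CD45- populations that were combined at equal ratios, so shares of cells refer to the sorted mixture, not to the organ. The number of mice behind each library is not given in the sources used here. With 1 library per group there is no replicate error and no test of a condition. The 95% intervals below, Poisson for CPM, conditional binomial for ratios, and binomial for shares, all exact, cover counting error only.

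The libraries held between 101811035 and 176094297 UMIs. Barcodes with at least 1000 genes and at most 10% mitochondrial UMIs were taken as cells, which gave 3497, 4340, 3236, and 5188 cells in CBM, TBM, CS, and TS. Median UMIs per cell were 13738, 14386, 26322.5, and 26808, in the same order, and a pair of libraries shared between 2 and 9 cell barcodes. Of 35 clusters, 24 were named from marker genes, in 11 classes. The 11 unnamed clusters held 14.6%, 18.9%, 43.6%, and 30.5% of the cells of CBM, TBM, CS, and TS. Although CD45- populations were sorted into the pool, no cluster met the marker rule for stromal, endothelial, or macrophage cells, so the receptors of splenic niche cells are not described here.

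TNFα is made as a membrane-bound trimer, and ADAM17 releases the soluble form. Both forms bind TNFR1, encoded by *Tnfrsf1a*, while TNFR2, encoded by *Tnfrsf1b*, responds mainly to the membrane form. TNFR1 recruits TRADD, RIPK1, TRAF2, and the ubiquitin ligases cIAP1 and cIAP2 to activate NF-κB, and the same complex can turn to a caspase-8 or RIPK3 death pathway. TRAF1, which binds TRAF2, and A20, encoded by *Tnfaip3*, are textbook NF-κB target genes. In marrow, TNFα is known as an inflammatory signal that acts on stem cells and favors myeloid output, and mast cells, monocytes, and dendritic cells are known sources of it.

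Sequences from 2 places in the *Tnf* gene are shown because both are known control points of its short-lived mRNA, the ligand transcript on which the results turn. *Tnf* (ENSMUSG00000024401) lies on the minus strand at chr17:35199381-35202007 of GRCm38, 1157 bases from its neighbor *Lta*. Its RefSeq promoter window, 250 bases before to 50 bases after the start, is chr17:35201958-35202257 on the minus strand of GRCm38.p6. Capitals mark, in order, a GC box, written here as CCGCCC on the strand shown, and a TATA box, TATAAA.

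Tnf promoter: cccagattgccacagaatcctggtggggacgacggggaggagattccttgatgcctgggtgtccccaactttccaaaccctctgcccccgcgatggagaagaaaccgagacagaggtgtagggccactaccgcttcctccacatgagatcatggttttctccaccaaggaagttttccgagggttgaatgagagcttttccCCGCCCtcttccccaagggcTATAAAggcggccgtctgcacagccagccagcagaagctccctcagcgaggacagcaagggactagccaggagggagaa

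The TATA box began 29 bases before the annotated start. TATAAA was searched on both strands and stood in 13.6% of 32851 RefSeq promoter windows of this length, and of the windows of the 7 genes only that of *Tnf* held it. GGGCGG stood in 35.7% of all windows and in those of *Tnf*, *Tnfrsf1b*, *Traf2*, *Ripk1*, and *Adam17*. None of the members' windows held the NF-κB consensus, present in 8.46% of all windows, the AP-1 motif TGANTCA, in 7.81%, or the CRE motif TGACGTCA, in 1.79%. These counts describe letters in a short window and leave out distal sites.

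The other *Tnf* sequence is the densest 30 bases of its AU-rich element, in the 3' UTR of the last exon at chr17:35199679-35199708 on the minus strand of GRCm38, with each ATTTA in capitals. Overlapping copies share their first and last bases.

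Tnf AU-rich element: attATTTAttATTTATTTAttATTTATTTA

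ATTTA is the core that tristetraprolin (*Zfp36*) and its relatives bind to shorten the life of an mRNA. The window held 5 of the 8 copies in the 764-base *Tnf* 3' UTR. The 3' UTR of *Tnfrsf1a* and that of *Traf2* held no copy, *Adam17* held 1, *Tnfrsf1b* 2, *Traf1* 3, and *Ripk1* 7 in 4365 bases.

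*Tnf* UMIs were found in most classes of hematopoietic cells, at levels that differed between them and did not all exceed the background. Mast or basophil-like cells stood above HSPC-like cells beyond counting error in TBM, with a log2 ratio of 3.96 (3.68 to 4.25), while the intervals of this ratio held 0 in CBM, at 0.33 (−0.24 to 0.86), in CS, at −0.10 (−0.44 to 0.24), and in TS, at 0.44 (−0.00 to 0.85). The plot of *Tnf* by class shows each level beside 2 backgrounds: free RNA, which is the RNA of barcodes with at most 100 UMIs, and the erythroid-like cells, which are no usual source of TNFα. Erythroid-like cells read 1.06, 0.538, 0.446, and 0.359 CPM in CBM, TBM, CS, and TS, from 3, 2, 15, and 28 UMIs. The free RNA read 5.59, 13.2, 9.28, and 8.32 CPM. Levels above it were read in mast or basophil-like cells of TBM, CS, and TS. In CS and TS they were also read in HSPC-like, megakaryocyte-like, dendritic-like, and T, NK, or innate lymphoid-like cells. No other named class exceeded free RNA in any library. In TBM, 54 neutrophil-like cells, at 25.2 CPM (14.4 to 41.0), and monocyte-like cells, at 16.3 (13.6 to 19.5), also stood above HSPC-like cells, at 8.53 (7.12 to 10.1). Both levels overlapped free RNA.

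**Figure D1:**
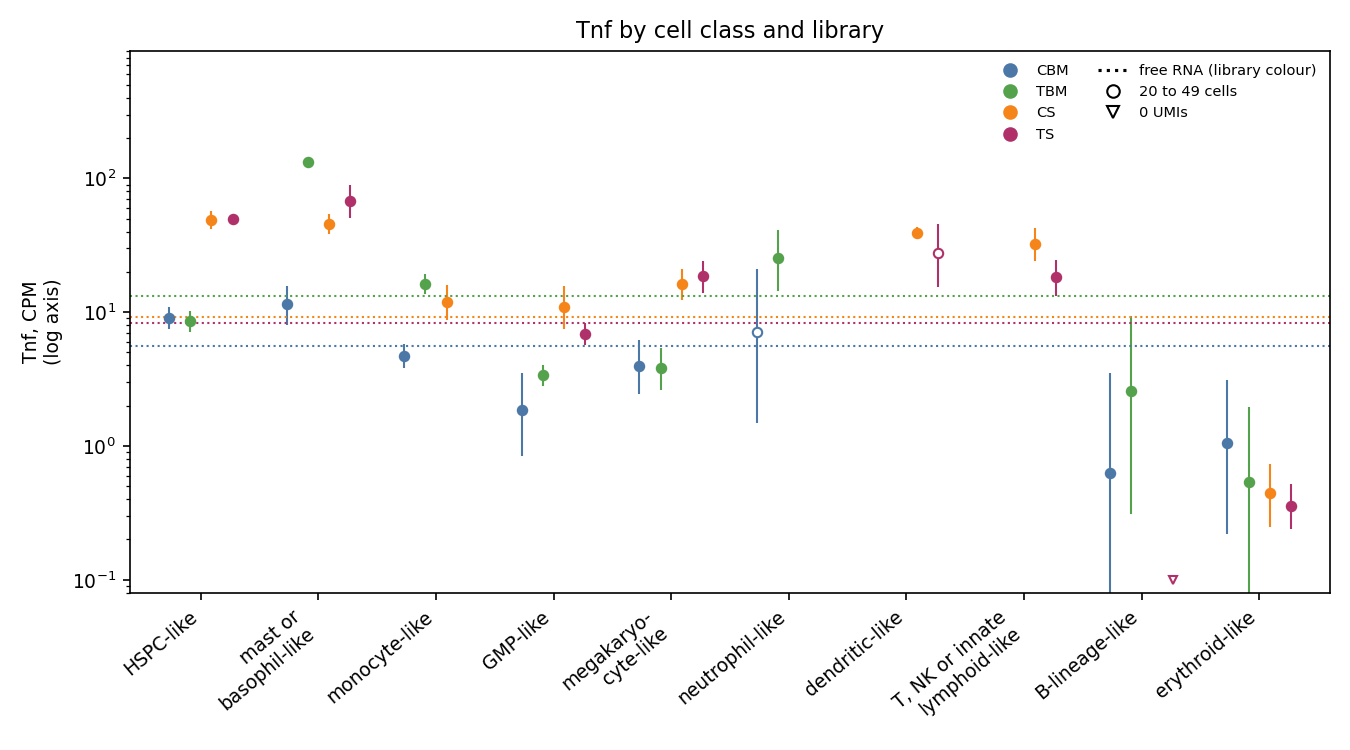
*Tnf* level (CPM, log axis) by cell class, with 1 point per library and 95% Poisson intervals. Dotted lines are free RNA in the library's color, open circles are populations of 20 to 49 cells, and open triangles are populations with 0 UMIs. The mast or basophil-like cells of TBM stand highest at 132.6 CPM, the HSPC-like cells of CS and TS sit near 50 CPM, and the erythroid-like cells lie at or below 1.06 CPM.

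HSPC-like cells, led by genes such as *Hlf*, *Mecom*, *Cd34*, *Adgrl4*, and *Flt3*, read *Tnf* at 9.11 CPM in CBM (interval 7.55 to 10.9), 8.53 in TBM (7.12 to 10.1), 49.1 in CS (42.0 to 57.1), and 50.1 in TS (46.0 to 54.5). These values rested on 819, 931, 162, and 692 cells and on 120, 129, 170, and 540 UMIs. Both spleens were high and both marrows low, with no overlap of intervals between the organs, and only the spleen values exceeded free RNA. The log2 ratio of spleen over marrow was 2.43 (2.09 to 2.78) without a tumor (CS over CBM) and 2.56 (2.28 to 2.84) with one (TS over TBM). Within an organ the interval of the tumor-bearing over control ratio held 0, at −0.09 (−0.46 to 0.28) in marrow and 0.03 (−0.22 to 0.29) in spleen.

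Of the 7 genes, *Tnf* and *Traf1* were past 2-fold in HSPC-like cells in CS over CBM and in TS over TBM, and none was in TBM over CBM or TS over CS. Over all genes with at least 20 UMIs in the 2 populations, 5.85%, 5.36%, 4.97%, and 6.80% were past 2-fold in either direction in these 4 comparisons. Some genes induced by tissue dissociation also differed between the organs. Of a fixed list of 20 such genes, including *Fos*, *Jun*, *Egr1*, *Atf3*, and *Hspa1a*, 8 were past 2-fold higher in CS over CBM, with a list median log2 ratio of 0.85, and 4 in TS over TBM, with a median of 0.55. The list's medians were 0.13 in TBM over CBM and −0.00 in TS over CS. The part of dissociation in the *Tnf* values was not tested.

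The share of HSPC-like cells with a *Tnf* UMI was 11.4%, 10.6%, 45.7%, and 41.9% in CBM, TBM, CS, and TS. At 2000 UMIs per cell, which left out 0, 1, 2, and 1 cells, the shares to be expected from thinning were 1.74% (0.938 to 2.85), 1.91% (1.15 to 3.04), 9.11% (5.34 to 15.0), and 10.2% (7.98 to 12.6). The spleen shares stayed above the marrow shares at equal depth. In erythroid-like cells 1.57%, 0.549%, 1.39%, and 1.08% had a UMI at median depths of 13665, 14162.5, 68750.5, and 38786.5 UMIs, against 14017, 13607, 19046, and 13660 in HSPC-like cells. Up to 9 *Tnf* UMIs came from 1 HSPC-like cell of TS, where 133 cells held at least 2 and 157 held 1.

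The HSPC-like class joined 3 clusters, and the libraries drew on them unequally. Cluster 0, the most stem-like by *Hlf* and *Mecom*, supplied 665, 595, 105, and 45 cells of CBM, TBM, CS, and TS. Cluster 1, led by *Cd34* and *Flt3*, supplied 154, 312, 51, and 373, and cluster 33, led by *Dusp2*, *Cxcl2*, *Egr1*, and *Socs3* beside *Ly6a*, supplied 24 in TBM, 6 in CS, and 274 in TS.

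*Tnf* differed between these clusters within TS. In cluster 0 it read 10.6, 10.2, 63.6, and 20.1 CPM in CBM, TBM, CS, and TS, where the TS value came from 8 UMIs and has an interval of 8.68 to 39.6. In cluster 1 the levels were 5.95, 6.40, 34.9, and 38.2 CPM. In cluster 33 the TS cells read 87.5 CPM (76.8 to 99.3) and the TBM cells 20.6 (8.29 to 42.5). Within cluster 0 the TS over CS ratio was −1.66, and the TS interval lay below that of CS, 52.2 to 76.8. Without clusters drawn by over 60% from 1 library the class ratio was −0.41, while the ratio in cluster 1 was 0.13 (−0.28 to 0.56). The part of the cluster mix in the class ratio was not tested. TS over TBM was 0.97 within cluster 0, under 2-fold. There the TS interval overlapped that of TBM, 8.02 to 12.9, and that of free RNA in TS, 5.61 to 11.9. CS over CBM stood between 2.34 and 2.59 in every alternative and cluster that gave a value.

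**Figure D2:**
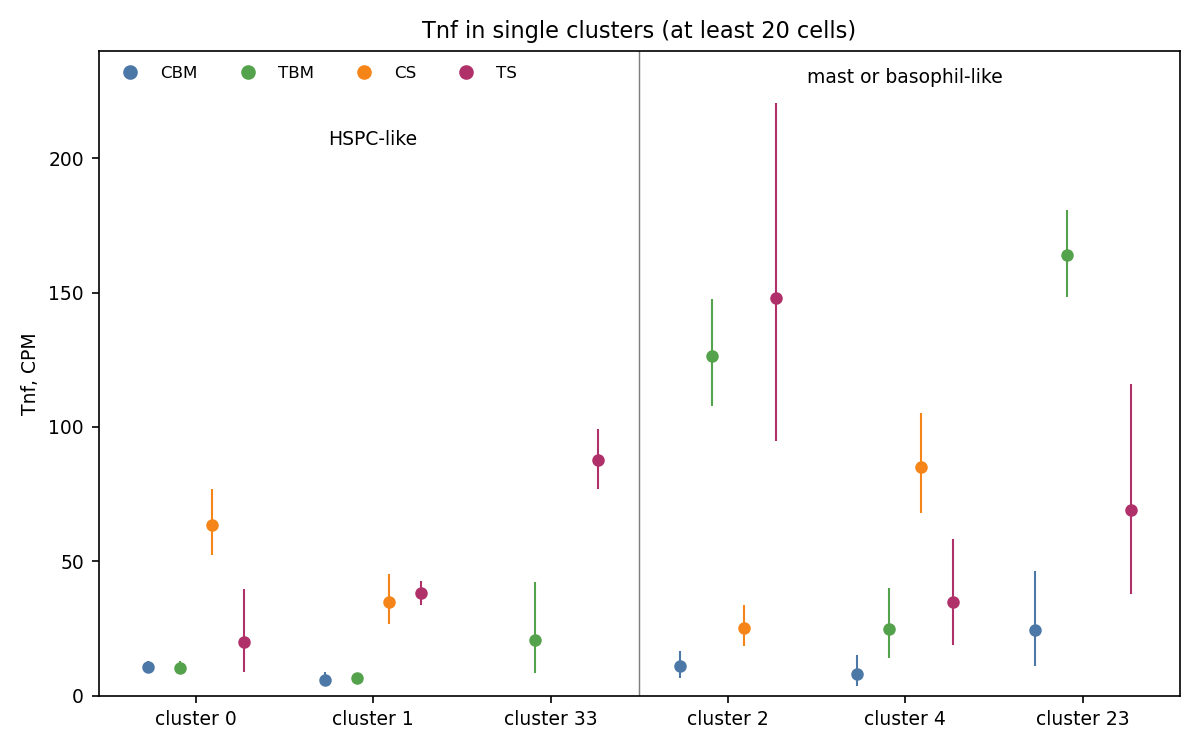
*Tnf* level (CPM) in the clusters that make up the HSPC-like class (0, 1, 33) and the mast or basophil-like class (2, 4, 23), 1 point per library with at least 20 cells, with 95% Poisson intervals. Cluster 33 of TS reads 87.5 CPM against 38.2 in cluster 1 and 20.1 in cluster 0, and among the mast or basophil-like clusters the TBM cells read 126.4, 24.8, and 163.9 CPM.

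Between the marrow libraries the largest difference in *Tnf* lay in the mast or basophil-like cells. These cells carry IgE receptors, store proteases and histamine, and are a classical source of TNFα. Their clusters were led by *Ccl3*, *Ccl4*, *Cd200r3*, and *Il6* (cluster 2), by *Gzmb*, *Cma1*, and *Cpa3* (cluster 4), and by *Prss34*, *Mcpt8*, and *Fcer1a* (cluster 23), in which the last set are basophil genes and *Cma1* is a mast cell protease. *Tnf* read 11.4 CPM in CBM (8.08 to 15.7), 132.6 in TBM (122.0 to 143.8), 45.9 in CS (38.3 to 54.5), and 67.8 in TS (50.6 to 88.9), from 530, 503, 365, and 97 cells. The TBM level was the highest *Tnf* level of any class and library with at least 20 cells, and CBM was the lowest of the 4 libraries in this class.

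The log2 ratio of TBM over CBM was 3.54 (3.06 to 4.05) in mast or basophil-like cells. CS over CBM was 2.01, TS over CS was 0.56 (0.07 to 1.04), and TS over TBM was −0.97 (−1.41 to −0.56), just under 2-fold. The directions of the last pair and the size of CS over CBM, 1.22 in cluster 2 and 3.40 in cluster 4, differed between clusters. Of the 7 genes, *Tnf* and *Traf1* were past 2-fold in TBM over CBM, where 8.15% of all tested genes were, and also in CS over CBM, where 4.89% were. *Tnfrsf1a* and *Traf1* were in TS over CS, beside 13.7% of all genes, and none was in TS over TBM, beside 9.50%. In TBM over CBM, 3 of 19 tested dissociation genes were past 2-fold higher, with a list median of 0.39, and 4 of 18 in CS over CBM, with a median of 0.80. Their part in the *Tnf* ratios was not tested.

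*Tnf* was higher in TBM than in CBM in all 3 mast or basophil-like clusters, at different sizes, but TBM was not the highest library in each. In cluster 2 it read 10.9 CPM in CBM and 126.4 in TBM, while CS read 25.3 (18.5 to 33.9) and TS 148.1 (94.9 to 220.4). In cluster 4 the levels were 8.04 and 24.8 CPM, with 9 and 16 UMIs, while CS read 85.2 (68.0 to 105.3) and TS 34.7 (19.0 to 58.3). In cluster 23, the basophil cluster, they were 24.4 and 163.9 CPM, with 69.2 (37.8 to 116.2) in TS, and TBM supplied 229 of its cells against 44 in CBM. The TBM over CBM ratio was 1.62 in cluster 4 alone and 2.75 in cluster 23 alone.

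*Tnf* was spread unevenly over the mast or basophil-like cells of TBM. A UMI was found in 36.8% of them, and 128 cells held at least 2, 39 at least 5, and 1 held 13. The 25 cells with the most UMIs, 5% of the class, held 35.7% of its *Tnf* UMIs. Thinned to 2000 UMIs, which left out 3, 1, 1, and 2 cells, the shares with a UMI were 1.91% (0.914 to 3.46), 19.3% (16.0 to 23.1), 6.54% (4.27 to 9.65), and 11.4% (5.92 to 19.8) in CBM, TBM, CS, and TS, against 4.53%, 36.8%, 14.8%, and 24.7% at full depth. For the class as a whole, both readings put CBM lowest and TBM highest.

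Counted over all cells of a library, the sources of *Tnf* UMIs differed. In CBM, HSPC-like cells gave 38.3% and monocyte-like cells 32.3% of 313 UMIs. In TBM, mast or basophil-like cells, 11.6% of the cells, gave 55.4% of 1050. In CS, dendritic-like cells gave 34.5% of 1001 and HSPC-like cells 17.0%. In TS, HSPC-like cells, 13.3% of the cells, gave 56.1% of 963. These shares depend on the sort as well as on the level per cell.

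Monocyte-like cells, led by *Ly6c2*, *F13a1*, *Fn1*, and *Ccr2*, read *Tnf* at 4.73 CPM in CBM, 16.3 in TBM, and 12.0 in CS. Over CBM the log2 ratio was 1.79 (1.40 to 2.18) in TBM and 1.34 (0.80 to 1.86) in CS, and all 3 levels overlapped free RNA. TS held 3 such cells, too few for a value. Cluster 10, with *Fn1* and *Chil3*, held 401 of the 817 CBM cells and 246 of the 269 TBM cells, and within it *Tnf* read 8.41 and 17.8 CPM. *Tnf* was the only one of 6 members tested that was past 2-fold in either comparison, in which 10.5% and 5.68% of all genes were. *Traf1* had too few UMIs to be tested, 2, 5, and 14 in CBM, TBM, and CS, at levels that overlapped free RNA. Its log2 ratio over CBM was 2.79 (0.18 to 6.18) in TBM and 5.31 (3.19 to 8.49) in CS. In CS over CBM, 11 of 20 dissociation genes were past 2-fold higher, with a median of 1.16.

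In megakaryocyte-like and GMP-like cells *Tnf* was lower than in HSPC-like cells and again higher in spleen than in marrow. Megakaryocyte-like cells read 3.99, 3.86, 16.3, and 18.6 CPM in CBM, TBM, CS, and TS. *Tnf* and *Traf1* were past 2-fold in CS over CBM and in TS over TBM, as were 3.25% and 5.18% of all genes, but the *Traf1* ratio in CS over CBM, at 1.03 from 12 and 8 UMIs, had an interval of −0.38 to 2.52. The *Traf1* levels of these cells overlapped free RNA in all 4 libraries, and free RNA itself read 1.32 CPM in TBM and 6.65 in TS. GMP-like cells, the granulocyte and monocyte progenitors marked by *Mpo*, *Elane*, and *Ctsg*, read 1.85, 3.36, 11.0, and 6.91 CPM, and the intervals of all 4 overlapped free RNA or lay below it. *Tnf* was the only member of 6 tested past 2-fold in CS over CBM, beside 4.43% of all genes, and *Tnf* and *Traf1* were in TS over TBM, beside 5.18%. In CS over CBM *Traf1*, with 6 and 0 UMIs, was not tested. The GMP-like *Traf1* level of TS, 1.43 CPM, lay below free RNA. In GMP-like cells 13 of 18 dissociation genes were past 2-fold higher in CS over CBM, with a median of 1.87, and 5 of 20 in megakaryocyte-like cells, with a median of 0.70. Whether these genes and *Tnf* share a source was not tested.

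Dendritic-like and lymphoid-like cells were few in the marrow libraries and are described in spleen. Dendritic-like cells, led by *H2-Aa*, *Cd74*, and *Xcr1*, read *Tnf* at 39.0 CPM in CS (35.0 to 43.4) and 27.6 in TS (15.4 to 45.5). T, NK, or innate lymphoid-like cells, led by *Trbc1*, *Il2ra*, and *Gzma*, read 32.4 CPM in CS (24.2 to 42.3) and 18.3 in TS (13.3 to 24.6). In the lymphoid cells the TS over CS ratio was −0.82 (−1.43 to −0.22). Here *Traf1* was the only member past 2-fold, beside 11.4% of all genes.

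*Tnfrsf1a* differed more between cell classes than between libraries of a class. The encoded TNFR1 is widely expressed and carries the death domain of the system. HSPC-like cells read 49.5, 52.9, 50.6, and 43.3 CPM in CBM, TBM, CS, and TS, and the log2 ratios stood between −0.29 for TS over TBM and 0.10 for TBM over CBM. The TS over TBM interval, −0.45 to −0.12, lay below 0, and that of TS over CS, −0.48 to 0.04, did not. Monocyte-like cells were higher, at 78.1, 85.7, and 90.0 CPM in CBM, TBM, and CS, and neutrophil-like cells of TBM read 88.4. GMP-like cells read 53.8, 54.2, 58.7, and 55.5 CPM.

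Among classes with at least 50 cells, erythroid-like cells were at the bottom of the *Tnfrsf1a* order in every library, at 3.23 to 4.60 CPM. In CBM the order of these classes ran from monocyte-like through GMP-like, HSPC-like, mast or basophil-like, and megakaryocyte-like to B-lineage-like and erythroid-like cells, and the 30 neutrophil-like cells read 71.5 CPM (48.3 to 102.1), between the first pair. The neighbors GMP-like and HSPC-like did not differ beyond counting error in CBM, TBM, or CS, while in TS the GMP-like level was the higher of the pair, by 0.36 (0.19 to 0.52). Mast or basophil-like cells read 17.1, 13.2, 11.3, and 24.8 CPM, with log2 ratios of −2.16 to −0.81 to the HSPC-like cells of the same library. Their TS over CS ratio of 1.13 (0.23 to 2.00) rested on 19 and 32 UMIs.

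The free RNA of *Tnfrsf1a* was high in the marrow libraries, at 56.7 CPM in CBM and 52.2 in TBM, against 19.9 in CS and 13.6 in TS. HSPC-like and GMP-like levels of the marrow libraries overlapped it, and those of the spleens exceeded it. Erythroid-like cells of the same marrow libraries read 4.60 and 3.23 CPM. The part of free RNA in the marrow levels was not tested.

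**Figure D3:**
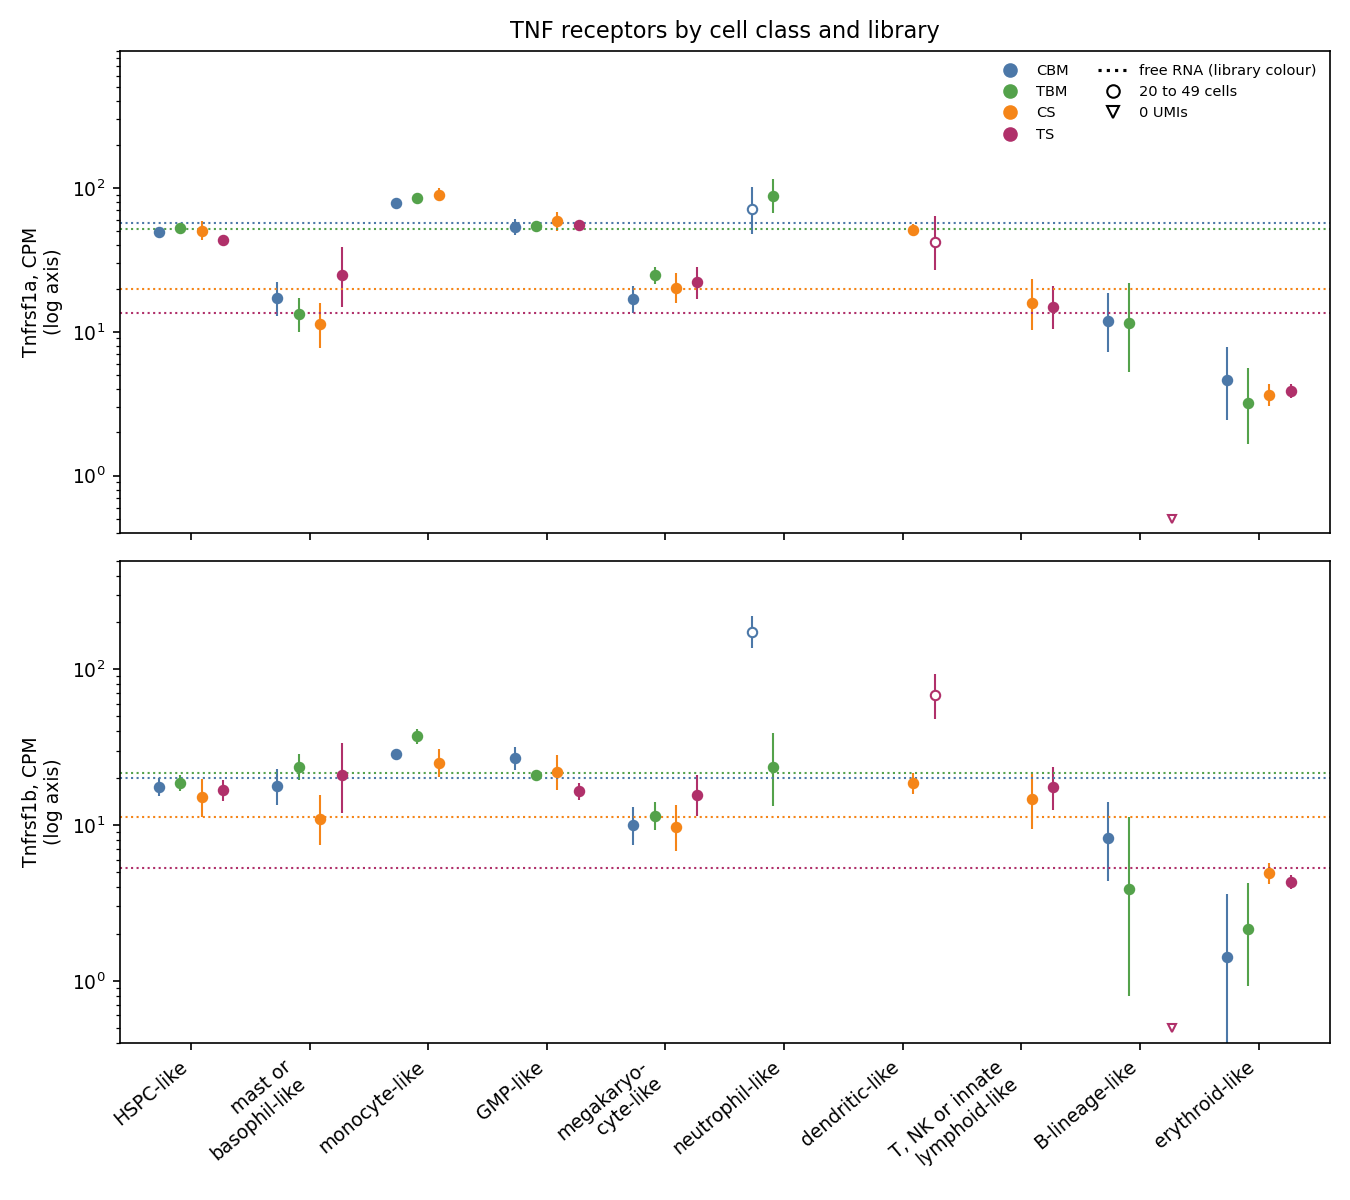
*Tnfrsf1a* and *Tnfrsf1b* levels (CPM, log axis) by cell class, 1 point per library with 95% Poisson intervals, dotted lines for free RNA, and open circles for 20 to 49 cells. In HSPC-like cells the 4 libraries lie at 43.3 to 52.9 CPM for *Tnfrsf1a* and at 15.0 to 18.7 for *Tnfrsf1b*.

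*Tnfrsf1b* did not differ beyond counting error between libraries in HSPC-like cells. TNFR2 lacks a death domain and signals through TRAF2. The levels were 17.5, 18.7, 15.0, and 16.7 CPM in CBM, TBM, CS, and TS, and each of the 4 ratios, from −0.22 to 0.15, had an interval that held 0. The widest of these intervals were −0.30 to 0.63 for TS over CS and −0.68 to 0.22 for CS over CBM, so log2 ratios of those sizes were within counting error at this depth. Free RNA held 20.2, 21.5, 11.3, and 5.27 CPM of *Tnfrsf1b* in CBM, TBM, CS, and TS, and only the TS level exceeded it. Monocyte-like cells read 28.5, 37.1, and 25.0 CPM.

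Small groups of neutrophil-like and dendritic-like cells stood above the rest for *Tnfrsf1b*. The 41 dendritic-like cells of TS read 68.0 CPM (47.9 to 93.8). The 30 neutrophil-like cells of CBM read 174.1 CPM (136.4 to 218.9), while the 54 of TBM read 23.7 (13.3 to 39.0). Among dendritic-like cells of CS, cluster 34, led by *Ccr7*, *Fscn1*, and *Ccl5*, genes of migratory dendritic cells, read 178.7 CPM (144.1 to 219.2) in 45 cells, while cluster 29, with the conventional dendritic gene *Xcr1*, read 8.65 (6.77 to 10.9) in 324 cells. The same cluster 34 read *Tnf* at 13.6 CPM (5.47 to 28.0) from 7 UMIs, against 40.6 in cluster 29. Receptor and ligand were thus each higher in a different dendritic-like cluster of CS.

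*Traf1* moved with *Tnf* across organs but not across all classes. TRAF1 is an adaptor without a RING finger that binds TRAF2 and cIAP proteins. HSPC-like cells read 4.78 CPM in CBM (3.67 to 6.12), 3.83 in TBM (2.91 to 4.96), 17.6 in CS (13.5 to 22.7), and 28.2 in TS (25.1 to 31.6). Spleen was again above marrow without overlap, and here TS was also above CS in the class as a whole. The log2 ratios were 1.88 (1.35 to 2.41) for CS over CBM, 2.88 (2.47 to 3.31) for TS over TBM, 0.68 (0.28 to 1.10) for TS over CS, and −0.32 (−0.86 to 0.22) for TBM over CBM.

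By cluster, *Traf1* of TS read 22.6 CPM in cluster 0, 23.4 in cluster 1, and 42.5 in cluster 33. Free RNA held 0.43, 1.32, 6.51, and 6.65 CPM of *Traf1* in CBM, TBM, CS, and TS, so free RNA was higher in spleen too. The 290 HSPC-like cells of TS with a *Tnf* UMI read *Traf1* at 34.0 CPM and the 402 without read 23.7, a log2 ratio of 0.52 (0.19 to 0.86), at median depths of 14372.5 and 13142.5 UMIs. In CS the same ratio was 0.44 (−0.33 to 1.24). The intervals are over UMIs of cells in 1 library and do not compare conditions. They treat UMIs as independent, while in TS the 35 HSPC-like cells with the most *Traf1* UMIs held 42.1% of them. The share of TS cells with a *Tnf* UMI was 8.89%, 43.7%, and 44.9% in clusters 0, 1, and 33. The part of the cluster mix in these ratios was not tested.

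In the other classes *Traf1* was highest in dendritic-like cells, at 105.4 CPM in CS and 171.0 in TS. In CS it read 623.6 in cluster 34 and 73.3 in cluster 29, and in TS cluster 29 read 71.0 (48.9 to 99.7). Cluster 34 held 45 of the 369 dendritic-like cells of CS and 11 of the 41 of TS. The part of this cluster mix in the class levels was not tested. Dendritic-like cells gave 64.5% of the *Traf1* UMIs of CS. Lymphoid-like cells read 54.3 CPM in CS and 21.2 in TS, a TS over CS ratio of −1.36 (−1.88 to −0.85), the opposite direction to HSPC-like cells. Mast or basophil-like cells read 2.70, 11.8, 5.64, and 19.5 CPM in CBM, TBM, CS, and TS, from 9, 52, 16, and 15 UMIs. Their TBM over CBM ratio was 2.13 (1.10 to 3.34), while CS over CBM, at 1.06, had an interval that held 0, −0.20 to 2.42.

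*Traf1* was rare in the monocyte-like and GMP-like cells of CBM, but not in its neutrophil-like cells, which read 26.2 CPM (13.1 to 46.9) from 11 UMIs of 30 cells. Monocyte-like cells read 0.0937 CPM from 2 UMIs, and GMP-like cells held 0 UMIs, with an upper limit of 0.757 CPM. Erythroid-like cells of CBM also held 0, with an upper limit of 1.30 CPM, and those of TS read 2.10. Megakaryocyte-like cells read 1.59, 1.81, 3.25, and 8.92 CPM across CBM, TBM, CS, and TS.

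**Figure D4:**
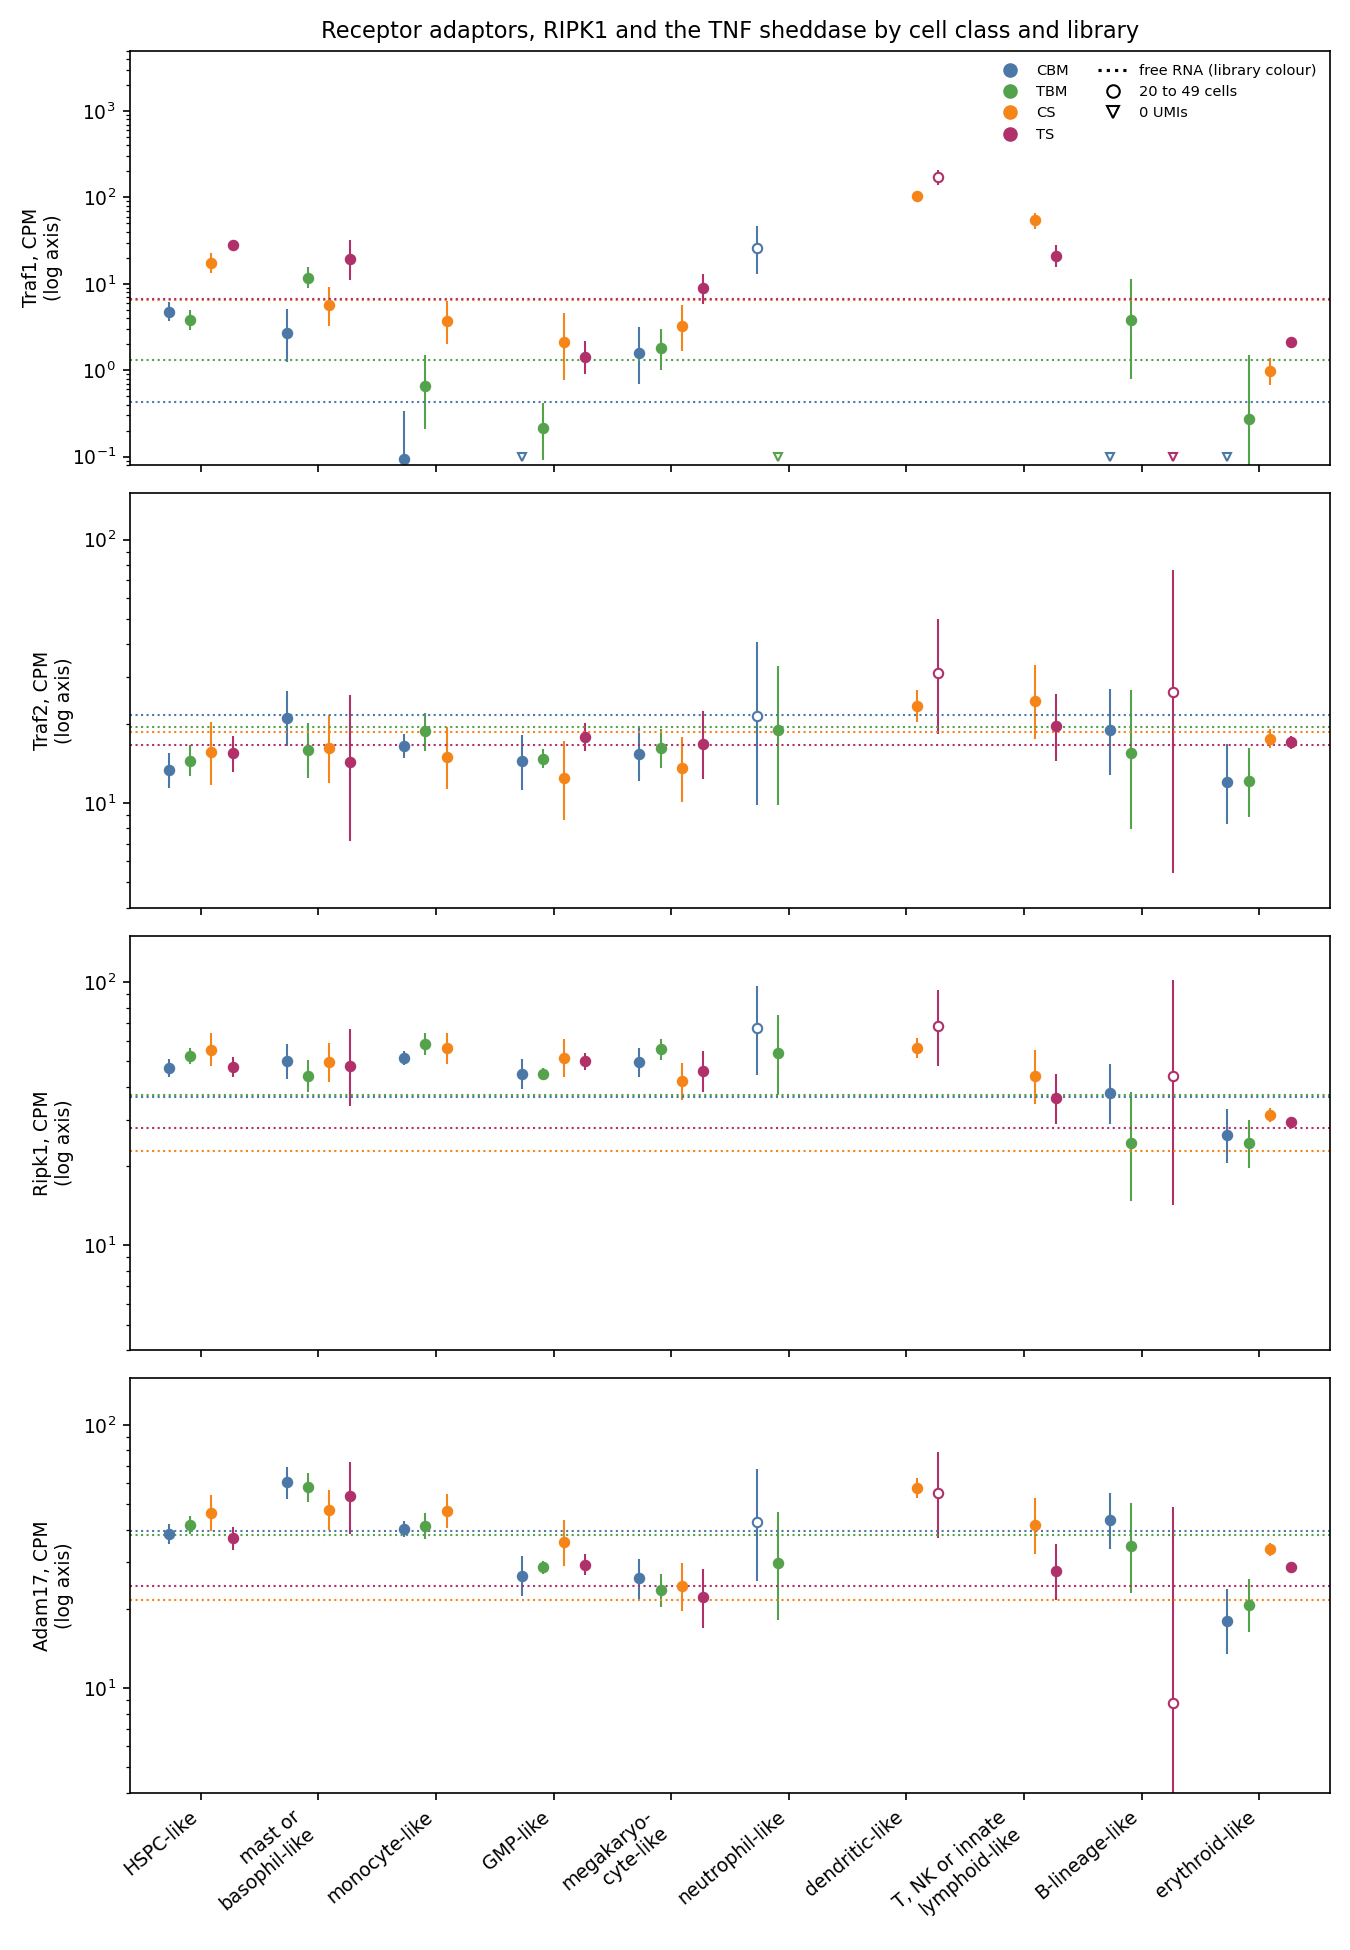
*Traf1*, *Traf2*, *Ripk1*, and *Adam17* levels (CPM, log axes) by cell class, 1 point per library with 95% Poisson intervals, dotted lines for free RNA, open circles for 20 to 49 cells, and open triangles for 0 UMIs. Apart from populations with 0 UMIs, *Traf1* runs from 0.0937 CPM in monocyte-like cells of CBM to 171.0 in dendritic-like cells of TS. The HSPC-like levels of *Traf2*, *Ripk1*, and *Adam17* lie at 13.3 to 15.6, 47.2 to 55.5, and 37.1 to 46.2 CPM.

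*Traf2*, *Ripk1*, and *Adam17* stayed within 2-fold between libraries in HSPC-like cells. TRAF2 brings the cIAP ligases to both receptors, and RIPK1 is the kinase and scaffold at which survival and death signals part. In HSPC-like cells *Traf2* read 13.3, 14.5, 15.6, and 15.4 CPM in CBM, TBM, CS, and TS. *Ripk1* read 47.2, 52.3, 55.5, and 47.5 CPM. *Adam17* read 38.6, 41.5, 46.2, and 37.1 CPM. None of the 12 ratios of these genes passed 2-fold, and the only interval that left out 0 was that of *Adam17* in TS over CS, at −0.32 (−0.59 to −0.04). *Traf2* did not exceed free RNA, at 21.5, 19.5, 18.6, and 16.6 CPM in CBM, TBM, CS, and TS, in any class with at least 20 cells. The HSPC-like levels overlapped free RNA for *Ripk1* in CBM and for *Adam17* in CBM and TBM, and exceeded it in the other libraries.

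Across classes with at least 50 cells *Ripk1* was lowest in erythroid-like cells in CBM, CS, and TS, at 26.2, 31.3, and 29.4 CPM, and in TBM those cells, at 24.5, read like B-lineage-like cells, at 24.4. Among classes with at least 50 cells, *Adam17* was highest in mast or basophil-like cells in CBM, TBM, and TS, at 60.4, 57.9, and 53.4 CPM, and each of these levels stood above that of the next such class beyond counting error. The 41 dendritic-like cells of TS read 55.2 CPM (37.2 to 78.7), which overlapped the mast or basophil-like level. In CS the dendritic-like cells read 57.6 CPM and the mast or basophil-like cells 47.6. *Adam17* in mast or basophil-like cells did not pass 2-fold between libraries, with ratios of −0.34 to 0.17. *Ripk1* overlaps *Serpinb6a*, and *Adam17* overlaps *Iah1*, each on the opposite strand.

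**Figure D5:**
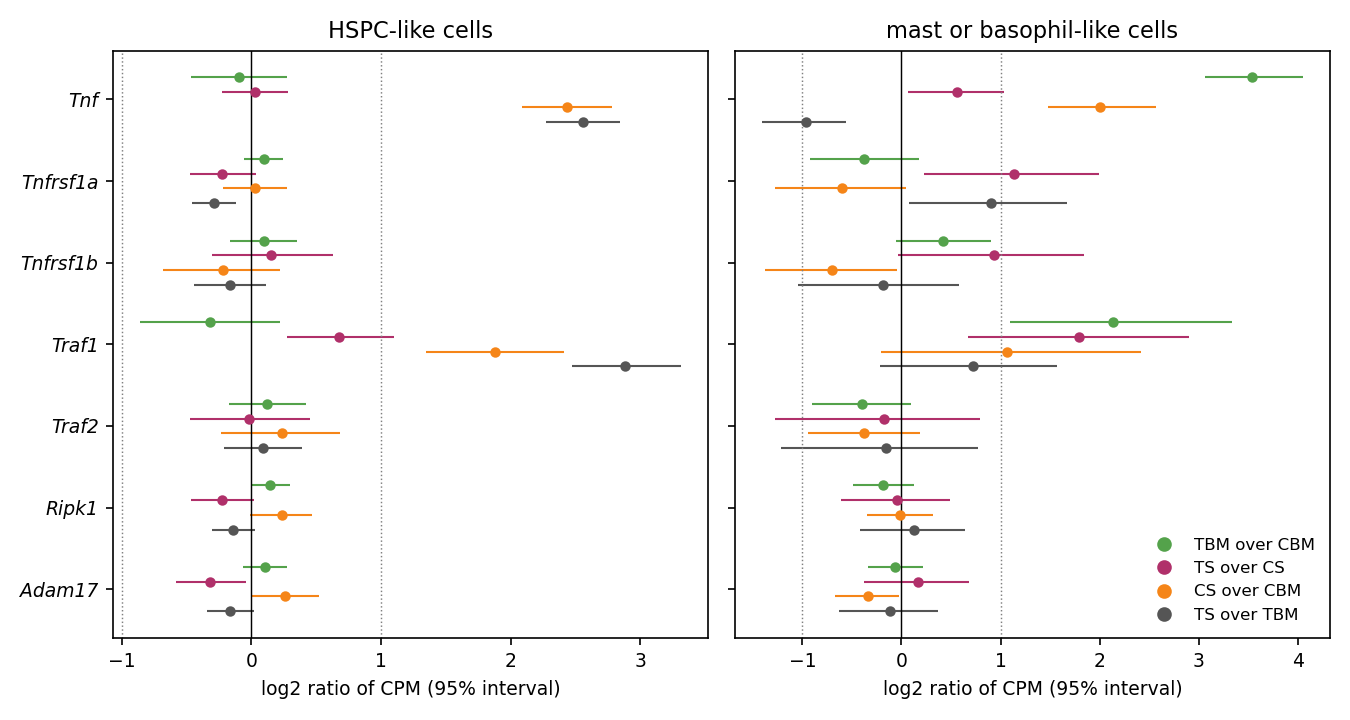
Log2 ratios of the 7 genes in HSPC-like and mast or basophil-like cells, with exact 95% intervals and lines at 2-fold. *Tnf* lies right of the 2-fold line in the spleen over marrow ratios of HSPC-like cells, at 2.43 and 2.56, and in TBM over CBM of mast or basophil-like cells, at 3.54, while *Tnfrsf1a* and *Tnfrsf1b* of HSPC-like cells lie within 0.29 of 0.

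Beyond the 7 genes, 38 further genes of the pathway were read from a fixed list: other ligands and LTβR, shedding regulators, adaptors and ubiquitin ligases, kinases, deubiquitinases, the death branch, and proteins that bind *Tnf* mRNA. In HSPC-like cells 2 of 36 tested were past 2-fold higher in CS over CBM and none lower, with a list median of 0.20 against 0.04 over all genes. In TS over TBM 1 of 36 was higher and none lower, with a median of 0.03. None of 37 was past 2-fold in TBM over CBM, and 2 of 36 were lower and none higher in TS over CS. The shares of all genes past 2-fold in these comparisons are those given for the 7 genes above.

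The genes that passed were few and of different function. *Tnfaip3*, which encodes the NF-κB inhibitor A20, read 15.0, 15.3, 38.7, and 37.5 CPM in HSPC-like cells of CBM, TBM, CS, and TS, with spleen over marrow ratios of 1.37 (1.04 to 1.69) in control and 1.30 (1.06 to 1.54) in tumor-bearing mice. *Timp3*, an inhibitor of ADAM17, read 5.01, 4.83, 17.9, and 2.97 CPM in CBM, TBM, CS, and TS, so that it was past 2-fold higher in CS over CBM, at 1.84, and lower in TS over CS, at −2.59. *Ltb*, the gene for lymphotoxin β, was lower in TS over CS, at −1.57, and its free RNA was lower too, at 25.3 CPM in CS and 5.82 in TS. The part of free RNA or of the cluster mix in the levels of *Tnfaip3*, *Timp3*, and *Ltb* was not tested. *Birc3*, which encodes cIAP2, did not pass, at spleen over marrow ratios of 0.65 in control and 0.87 in tumor-bearing mice. *Lta*, the neighbor of *Tnf*, had 0 to 2 UMIs in HSPC-like cells of each library.

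Among the genes whose proteins bind the AU-rich element, *Zfp36* read 257.2, 259.0, 466.0, and 424.9 CPM in HSPC-like cells of CBM, TBM, CS, and TS, and it was thus higher in the spleens, where *Tnf* was higher, with log2 ratios to marrow of 0.86 in control and 0.71 in tumor-bearing mice. *Zfp36* also stands on the dissociation list. In mast or basophil-like cells *Zfp36* read 625.3, 618.2, 1104.5, and 505.6 CPM in CBM, TBM, CS, and TS. These class levels pool clusters that differed. In CBM and TBM, cluster 2 read 1016.8 and 1160.4 CPM, and cluster 4 read 84.0 and 204.4. The part of *Zfp36* in the *Tnf* levels was not tested. None of 35 pathway genes was past 2-fold in TBM over CBM of mast or basophil-like cells, against 8.15% of all genes, *Tnfaip3* included, at 175.8 and 167.0 CPM. In the same class 2 of 34 tested were higher and 5 lower in TS over CS, against 13.7% of all genes in either direction, from 97 TS cells. *Mlkl*, of the necroptosis branch, was among those higher, at 22.2 CPM against 9.17 in CS. The others, higher or lower, are not named here. In monocyte-like cells *Zfp36l1* was higher in TBM over CBM, at 2.35, and in CS over CBM, at 1.84. Of all genes, 10.5% and 5.68% were past 2-fold in either direction in these comparisons. The rest of the pathway list is not described for this class.

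Genes whose levels followed those of the ligand and receptors across 29 populations of class and library were ranked by Pearson's r of log2(CPM + 1) over 8355 genes. These points share libraries, clusters, and depth, so r is given as a description. For *Tnf* the first were *Nfkbid* (0.85), *Ptgs2* (0.83), *Fosl2* (0.83), *Mob3a* (0.82), and *Ier3* (0.82). *Nfkbid* encodes an atypical IκB protein and *Ptgs2* cyclooxygenase-2, and *Ier3* stands on the dissociation list. For *Tnfrsf1a* they were *Sort1* (0.93), *Hexa* (0.91), *Vav3* (0.91), *Uap1l1* (0.90), and *Tctex1d2* (0.90), and for *Tnfrsf1b* they were *Arpc1b* (0.93), *Glud1* (0.92), *Twf2* (0.91), *Orai1* (0.90), and *Tpm3* (0.90). Between members, r was 0.72 for *Tnf* and *Traf1*, 0.85 for the receptor pair, and 0.41 for *Tnf* and *Tnfrsf1a*.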

How the data were processed

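4 libraries (1 each of CBM, TBM, CS, and TS) made with 10x Genomics 3' v3.1 chemistry were analysed. The authors counted UMIs with Cell Ranger, and the submitters' processing notes name version 4.0 and build mm10. The deposited values are raw UMI counts of every barcode, empty droplets included, with no normalization, ambient correction, or cell filter, so the authors' later steps were not in them. Per library, 58.1%, 62.9%, 71.8%, and 79.4% of UMIs (CBM, TBM, CS, TS) lay in the cells used. Barcodes with at least 1000 genes and at most 10% mt- UMIs were clustered in scanpy 1.11.5 with Python 3.11.15, from Pearson residuals (theta 100), 50 principal components, 20 neighbors, and Leiden resolution 1.2. The 7 members, the pathway list, and the dissociation list were left out of clustering. Clusters were named "-like" from fixed marker lists. A name needed at least 2 of a class's markers among a cluster's 10 leading genes and 4 in a longer list of them. Both counts had to exceed those of any other class. At least 3 markers, and at least 50% of the class's list, had to be detected in 10% of the cells. The thresholds of this rule were set after seeing the data, and clusters whose leading genes went against a name stayed unnamed. Doublets were not removed: Scrublet called 38, 50, 6, and 101 cells, and as its share in CS was 0.19%, its scores served only for an alternative. UMIs were summed per class and library, and genes with at least 20 UMIs over the 2 populations were counted as past 2-fold at a log2 ratio of 1 or more in size. A population needed 50 cells for a ratio. Levels of 0 are given with the upper limit of their interval. For shares, each cell's exact chance of keeping a UMI when thinned to 2000 UMIs was averaged over cells, shallower cells were left out, and the interval took the rounded expected number of cells. A single random thinning was replaced by this after its shares were seen to move between draws. Intervals are at the 95% level. On simulated HSPC-like counts for TS over TBM, 12488 genes, all 200 genes set to a log2 ratio of 2 in size were recovered. The set genes had at least 200 UMIs and Poisson noise only, so recovery near the minimum of 20 UMIs was not checked. The members and lists were chosen with earlier results of these data known. Genes named beyond the members were list genes past 2-fold, with the binding proteins and cIAP genes, and the 5 with the highest r. Promoters are RefSeq's on GRCm38.p6, and the 3' UTR is that of GENCODE on GRCm38, the same build as mm10. Supplementary figures and other assays of the study were not analysed here.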

Additional observations from a re-analysis of the deposited data

How the results depend on the processing

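The *Tnf*, *Tnfrsf1a*, *Tnfrsf1b*, and *Traf1* ratios on which the text turns, 16 in HSPC-like, mast or basophil-like, and monocyte-like cells, were recomputed under 11 alternatives (other gene minimums, mitochondrial maximum, clustering, class rule, doublets, free RNA, scaling, shared barcodes, and clusters drawn from 1 library) and, chosen after seeing the data, in single clusters of at least 20 cells per library. Several ratios were also added to the planned set after seeing the data. Of their alternative values 186 stayed within counting error, 19 did not, and none reversed a ratio past 2-fold. All 44 alternative counts of genes past 2-fold in HSPC-like cells stayed within 1.5 times the count reported. In HSPC-like cells without clusters with over 60% of cells from 1 library, *Tnf* moved to −0.41 in TS over CS and 2.18 in TS over TBM. In cluster 0 alone it was −1.66 in TS over CS and 0.97 in TS over TBM, and in cluster 33 alone it was 2.09 in TS over TBM. *Tnfrsf1a* was 0.29 in TS over CS in cluster 0 and 0.35 in CS over CBM in cluster 1. *Traf1* was 2.82 in CS over CBM in cluster 1, and in TS over TBM 2.05, 3.57, and 1.85 in clusters 0, 1, and 33. In mast or basophil-like cells *Tnf* was 1.62 and 2.75 in TBM over CBM in clusters 4 and 23, and 1.22 and 3.40 in CS over CBM in clusters 2 and 4. Its ratio of mast or basophil-like to HSPC-like cells in TS moved from 0.44 to 0.95 at resolution 0.6 and to 0.85 without library-specific clusters. In monocyte-like cells TBM over CBM was 1.10 with classes by marker score and 1.08 without library-specific clusters. Thinned to 5000 UMIs, the shares of HSPC-like cells with a *Tnf* UMI were 4.20%, 4.38%, 19.7%, and 21.6% in CBM, TBM, CS, and TS. The cause of these shifts was not tested. Ratios of *Traf2*, *Ripk1*, and *Adam17* and of the other classes were not recomputed. The ratio of monocyte-like to HSPC-like cells in TS had no value under any setting for lack of cells. No paired analysis was possible because each group is 1 library.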
